A study of Mus musculus with 19 samples.

Results

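The genes described here are 10 members of the interleukin-6 cytokine family, chosen by name out of 51707 mouse genes: the ligand genes Il6, Lif, Osm, Il11 and Clcf1 and the receptor genes Il6st, Il6ra, Lifr, Osmr and Il11ra1. Their transcripts were measured by RNA-seq in 19 libraries of cells sorted from mouse pancreatic ductal adenocarcinomas. The tumours came from T-LOH KPC organoids, tumour organoids of the KPC pancreatic cancer model, placed in the pancreas of C57BL/6J mice, and all mice carried such tumours. The mice were given neratinib, an irreversible inhibitor of ERBB-family kinases, or vehicle for 2 weeks. The groups were PDPN+ cells after neratinib (n = 4), PDPN+ cells after vehicle (n = 4), EpCAM+ cells after neratinib (n = 5) and EpCAM+ cells after vehicle (n = 6). The labels call PDPN+ cells cancer-associated fibroblasts and EpCAM+ cells epithelial. The labels name the strain and the treatment and give no age for the mice.

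The 5-digit number in each library's title was read as the mouse, an inference on which the p-values rest: it makes every library of a group a separate animal, and 8 mice gave both populations. Libraries are called by the code that opens their title. Values of single libraries are listed in the order 6A, 7A, 8A and 9A for PDPN+ neratinib and 1A, 2A, 3A and 4A for PDPN+ vehicle. EpCAM+ neratinib values follow the order 7B, 8B, 10B, 12B and 13B, and the 6 EpCAM+ vehicle libraries (1B to 6B) are given by their lowest, median and highest value.

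Between 30.3 and 48.1 M reads could be summed to genes in a PDPN+ library, and between 39.4 and 75.4 M in an EpCAM+ library. Genes with at least 10 reads numbered 11924 to 18602 in PDPN+ libraries and 16542 to 17984 in EpCAM+ libraries. Among PDPN+ libraries, 4A (11924) and 1A (12102) had the fewest and 3A (18602) the most. The part of this spread in the values at or near 0 was not tested. The summed level of 6 fibroblast markers was 16940 to 30950 CPM (counts scaled to library size) in PDPN+ libraries and 14.7 to 191 CPM in EpCAM+ libraries. The summed level of 6 epithelial markers was 427 to 1800 CPM in PDPN+ libraries and 16490 to 24600 CPM in EpCAM+ libraries. Within PDPN+ libraries, the markers Epcam, Cdh1 and Cldn4 did not pass 0.942% of their EpCAM+ mean, while the keratin genes Krt8 and Krt19 stood at 2.79 to 15.3% of it and Krt18 at 0.00255 to 7.34%. Summed mesothelial markers (4 genes) were at 728 to 2641 CPM in PDPN+ and 724 to 1253 CPM in EpCAM+ libraries. Summed lymphatic endothelial markers (4 genes) had a PDPN+ median of 21.9 CPM but stood at 755.5 CPM in library 6A. In EpCAM+ libraries they did not pass 3.28 CPM. The part of such cells in the members' levels was not tested. In earlier results of these data the PDPN+ vehicle libraries 1A and 4A, and the EpCAM+ libraries 1B, 2B and 7B, stood apart from the rest of their population, so values without them are given where they matter.

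Cytokines of this family act through gp130, the signalling chain encoded by Il6st, which recruits JAK kinases and the transcription factor STAT3. Interleukin-6 and interleukin-11 first bind a non-signalling receptor of their own, encoded by Il6ra and Il11ra1, whereas LIF pairs gp130 with the LIF receptor, mouse oncostatin M pairs it mainly with the oncostatin M receptor, and CLCF1 acts through the CNTF receptor, the LIF receptor and gp130. In pancreatic tumours the family is known for traffic between fibroblasts and cancer cells, with interleukin-6 a marker of inflammatory fibroblasts and LIF a factor that acts on tumour cells.

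The sequences shown first are promoters of the ligand genes Il6, Il11 and Lif from the RefSeq promoter table (GRCm38.p6), shown because they hold motifs of factors that act on cytokine genes. Each is the 250 bases before the transcript start, on the gene's strand, with matches in capitals. The 3 motifs searched on both strands were the NF-kB consensus, chosen with the Il6 promoter in mind, TGANTCA, the AP-1 element, and TTCNNNGAA, a STAT element. Their matches did not overlap.
Il6, chr5:30012864-30013113 on the plus strand: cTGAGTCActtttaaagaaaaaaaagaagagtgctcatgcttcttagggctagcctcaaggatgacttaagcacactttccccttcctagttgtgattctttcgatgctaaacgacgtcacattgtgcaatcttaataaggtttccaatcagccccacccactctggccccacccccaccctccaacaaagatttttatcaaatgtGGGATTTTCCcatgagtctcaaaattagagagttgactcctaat
Il11, chr7:4778142-4778391 on the minus strand: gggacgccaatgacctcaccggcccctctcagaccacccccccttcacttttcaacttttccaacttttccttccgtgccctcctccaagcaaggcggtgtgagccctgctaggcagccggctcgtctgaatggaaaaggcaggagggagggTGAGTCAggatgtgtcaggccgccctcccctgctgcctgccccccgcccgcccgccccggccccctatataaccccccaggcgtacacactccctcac
Lif, chr11:4257318-4257567 on the plus strand: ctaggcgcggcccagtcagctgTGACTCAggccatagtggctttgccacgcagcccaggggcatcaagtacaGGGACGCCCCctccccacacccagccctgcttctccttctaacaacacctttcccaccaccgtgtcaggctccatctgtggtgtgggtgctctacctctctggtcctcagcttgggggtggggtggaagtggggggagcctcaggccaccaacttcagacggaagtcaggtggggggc
The NF-kB consensus matched 44 to 35 bases before the Il6 start and 178 to 169 bases before the Lif start, and it was found in 2382 of 32851 promoter windows of this length (7.25%). TGANTCA began 249, 98 and 228 bases before the starts of Il6, Il11 and Lif, and 6.75% of windows held it. TTCNNNGAA was in none of these 3 windows, against 7.02% of all windows. A second listed window of Il11 and the windows of Il6st, Il6ra, Lifr, Osmr and Il11ra1 held none of the 3 motifs. No promoter of Osm or Clcf1 was listed in this source, so theirs were not searched.

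To ask which population held ligand and which held receptor transcripts, PDPN+ libraries were compared with EpCAM+ libraries. Il6, Il11, Il6st, Osmr and Il11ra1 were higher in PDPN+ cells, Clcf1 was lower, and Lif, Il6ra and Lifr did not pass. So 6 of the 9 members tested passed edgeR's quasi-likelihood test (Benjamini-Hochberg adjusted p, threshold 0.05), where 49.3% of 19626 genes passed. The members that were higher made up 5 of 9, against 24.3% of all genes, and those that were lower 1 of 9, against 25% of all genes. Osm had too few reads to be tested in this fit. The median log2 difference was 1.77 over the 4 ligands tested and 1.74 over the 5 receptors, against -0.13 over all genes. The ligands lay on both sides of 0, from -1.41 (Clcf1) to 9.18 (Il6). The receptors ran from 0.86 (Lifr) to 4.65 (Il11ra1). Over all genes, 4761 were higher and 4910 lower; the split was 3308 and 8928 with limma on log2(TPM + 1), 3179 and 9670 with log2(TPM + 0.1), and 2804 and 4448 with the mouse as a replicate block. The median of all genes lay at -0.26, -0.72 and -0.64 in these 3 fits, in each of which 4 of the members higher here (Il6, Il6st, Osmr and Il11ra1) remained higher and Clcf1 remained lower. All 6 calls also held without PDPN+ libraries 1A and 4A, and without EpCAM+ libraries 1B, 2B and 7B. In a sorted population, fewer cells that express a gene and less of its RNA per cell cannot be told apart.

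**Figure D1:**
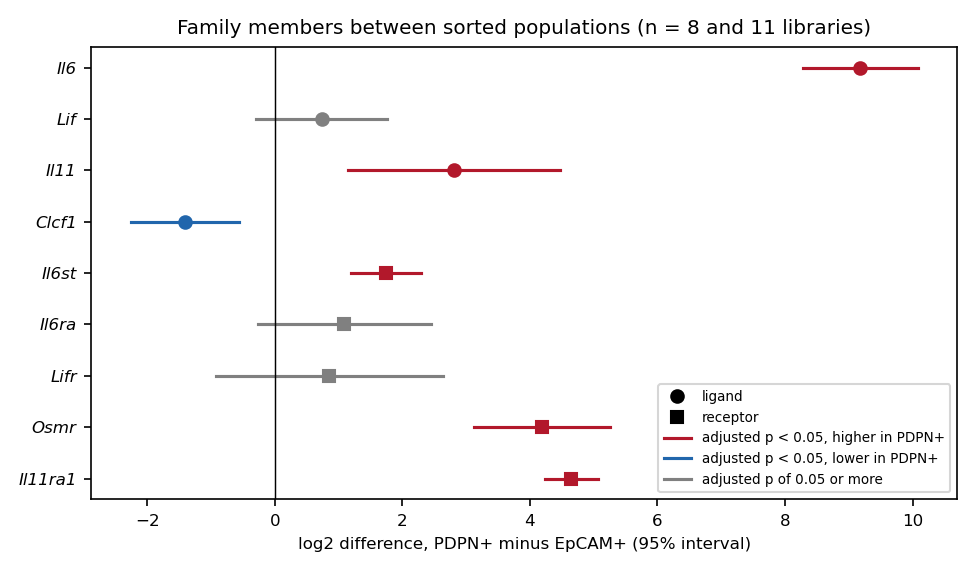
Log2 difference between 8 PDPN+ and 11 EpCAM+ libraries (PDPN+ minus EpCAM+) with its 95% interval, for the 9 members tested. Il6 lies farthest to the right at 9.18, Clcf1 is the member left of 0 at -1.41, and the intervals of Lif, Il6ra and Lifr cross 0.

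Il6 (ENSMUSG00000025746) encodes interleukin-6. In TPM, which scales reads to transcript length and library size, it stood at 30.8, 83.3, 61.7 and 79.2 in PDPN+ neratinib libraries and at 137, 93.4, 84.0 and 196 in PDPN+ vehicle libraries. In EpCAM+ neratinib libraries it stood at 0.06, 0.26, 0.07, 0.27 and 0.49 TPM, and in EpCAM+ vehicle libraries the lowest, median and highest values were 0.09, 0.23 and 0.34 TPM. Every PDPN+ library lay above every EpCAM+ library, and the reads behind these values were 1570 to 7827 in PDPN+ libraries and 2 to 21 in EpCAM+ libraries. Mean TPM was 95.7 ± 50.2 (SD, n = 8) in PDPN+ cells and 0.225 ± 0.125 (SD, n = 11) in EpCAM+ cells, a ratio of 425. The log2 difference was 9.18 (SE 0.43, adjusted p = 1.04e-11 by edgeR). The level in EpCAM+ libraries was 0.0407 to 0.322% of the PDPN+ mean, with a median of 0.145%. The medians of the 6 fibroblast markers in the same libraries were 0.0196 to 0.223% of their PDPN+ means, so Il6 lay inside the range that fibroblast markers keep in EpCAM+ libraries, and the source of its few reads there was not tested.

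Il11 (ENSMUSG00000004371) encodes interleukin-11. It stood at 1.86, 6.30, 9.49 and 4.58 TPM in PDPN+ neratinib libraries and at 0.12, 6.35, 11.0 and 2.67 TPM in PDPN+ vehicle libraries. In the EpCAM+ neratinib group it stood at 1.53, 0.12, 0.29, 0.34 and 3.96 TPM, and EpCAM+ vehicle libraries ran from 0.02 through a median of 1.00 to 1.89 TPM. The populations overlapped: 6 of 8 PDPN+ libraries lay above every EpCAM+ library in CPM, while vehicle library 1A held 7 reads. The log2 difference was 2.81 (SE 0.79, 95% interval 1.14 to 4.48, adjusted p = 0.00651 by edgeR). It lost its call with the mouse as a replicate block over the 16 paired libraries (2.36, adjusted p = 0.0948), where 38% of 19078 genes passed. It did not pass in neratinib libraries alone (edgeR adjusted p = 0.0594, 34.6% of 16840 genes called) or in vehicle libraries alone (0.0770, 30.8% of 17601 genes called), in both of which Il6, Il6st, Osmr and Il11ra1 passed.

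Clcf1 (ENSMUSG00000040663), which encodes cardiotrophin-like cytokine factor 1, ran the other way. It stood at 11.7, 16.04, 1.22 and 9.69 TPM in PDPN+ neratinib libraries and at 24.6, 10.2, 16.7 and 3.33 TPM in PDPN+ vehicle libraries. EpCAM+ neratinib libraries held 22.5, 48.8, 56.3, 44.6 and 33.3 TPM, and EpCAM+ vehicle libraries ran from 23.1 through a median of 46.2 to 65.0 TPM. Of the 8 PDPN+ libraries, 6 had less CPM than any EpCAM+ library, and no member lay below them in all 8, against 11.6% of all genes. The log2 difference was -1.41 (SE 0.41, 95% interval -2.26 to -0.55, adjusted p = 0.00755 by edgeR), and in neratinib libraries alone or vehicle libraries alone it did not pass (adjusted p = 0.0865 and 0.0862). Clcf1 in PDPN+ libraries was 4.39 to 82.6% of its EpCAM+ mean, with a median of 37.4%. The 6 epithelial markers reached up to 0.942% (Epcam, Cdh1 and Cldn4) and up to 15.3% (Krt8, Krt18 and Krt19) of theirs. So the lowest Clcf1 values lay inside the range of the keratins and above that of Epcam, Cdh1 and Cldn4. The part of epithelial cells in these values was not tested. Clcf1 shares sequence with the annotated gene AC109138.7, so reads of that pair are uncertain.

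Clcf1 held most of the ligand transcripts in EpCAM+ cells, and Il6 most of those in PDPN+ cells. Of the summed TPM of the 5 ligand genes, Il6 took 74.6 ± 10.5% in PDPN+ neratinib and 81.3 ± 8.82% in PDPN+ vehicle libraries (SD, n = 4 each). In EpCAM+ libraries it took 0.474 ± 0.324% after neratinib and 0.516 ± 0.241% after vehicle (SD, n = 5 and 6). Clcf1 took 12.2 ± 8.89% and 9.80 ± 6.08% in PDPN+ neratinib and vehicle libraries, and 86.1 ± 11.9% and 88.6 ± 2.39% in EpCAM+ neratinib and vehicle libraries.

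**Figure D2:**
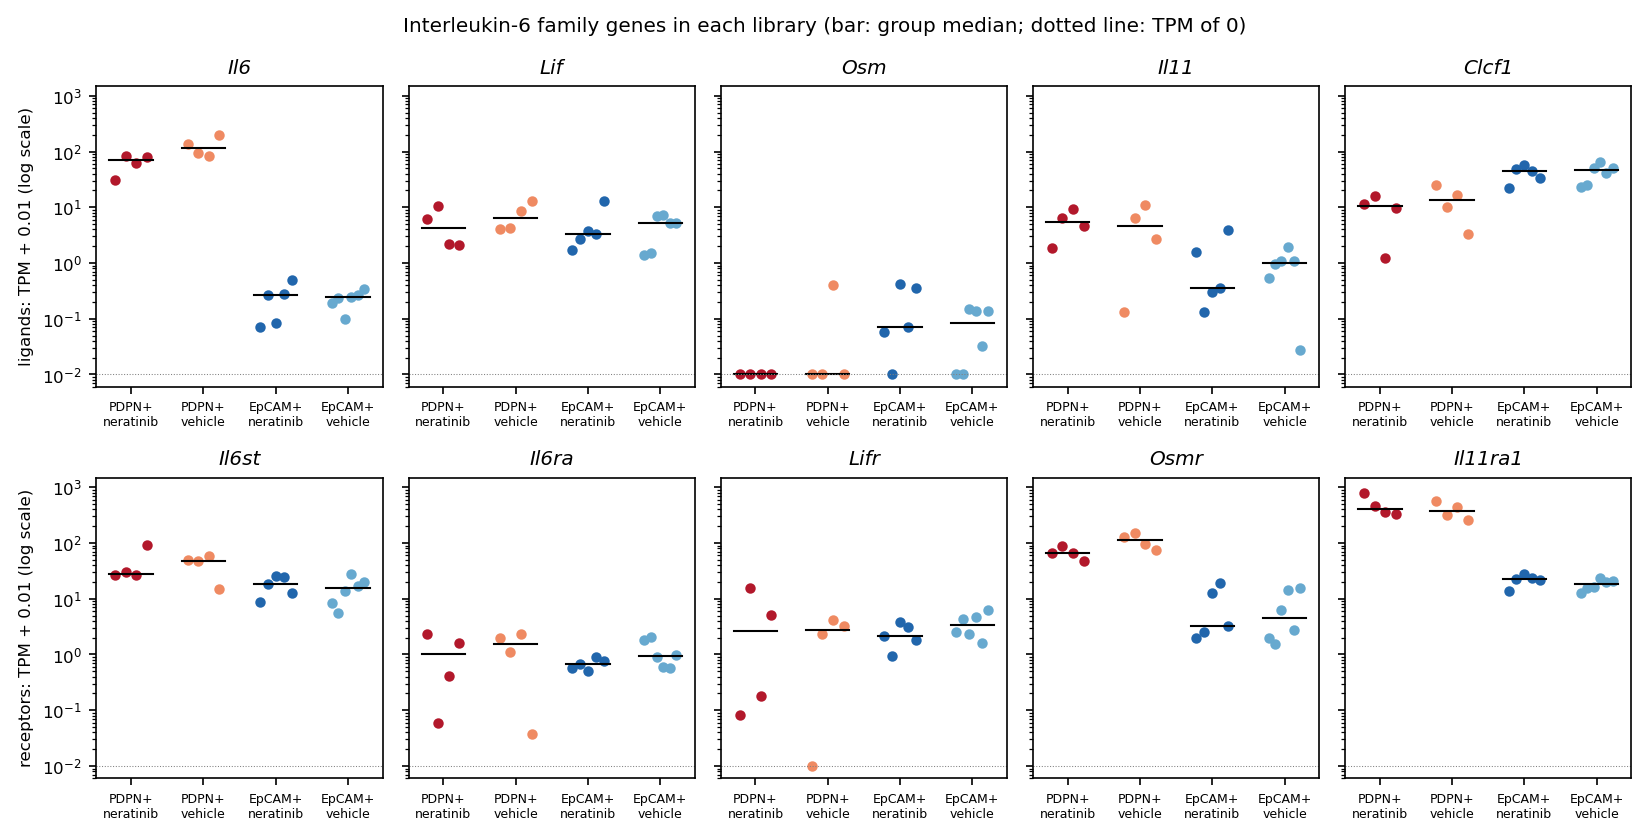
TPM plus 0.01 of each member on a log scale, with 1 point per library, a bar at the group median and a dotted line where a TPM of 0 lies. Il6, Osmr and Il11ra1 separate the populations without overlap, Clcf1 is higher in EpCAM+ groups, and Osm sits at 0 in 7 of 8 PDPN+ libraries.

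Lif (ENSMUSG00000034394), the leukaemia inhibitory factor gene, was present in both populations. PDPN+ neratinib libraries held 6.19, 10.6, 2.18 and 2.12 TPM and PDPN+ vehicle libraries 4.12, 4.27, 8.42 and 13.0 TPM. In the EpCAM+ neratinib group it stood at 1.71, 2.70, 3.77, 3.33 and 12.9 TPM, and EpCAM+ vehicle libraries ran from 1.38 through a median of 5.25 to 7.39 TPM. The populations overlapped, with a log2 difference of 0.74 (SE 0.49, 95% interval -0.29 to 1.76, adjusted p = 0.224 by edgeR). Without EpCAM+ neratinib library 13B, the one at 12.9 TPM, the log2 difference was 1.19 and passed (adjusted p = 0.0370).

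The 2 populations differed in which coding transcript of Lif the reads were assigned to, a comparison made after the values were seen and given as a description. Lif-202 has a coding sequence of 609 bases. Lif-201 has 474 coding bases, which equal the last 474 of Lif-202, so only 135 bases at the start of the coding sequence belong to Lif-202 alone. The first 60 coding bases of each (GENCODE M21, gene on chromosome 11) are shown because the coding sequences differ at their start, with bases that only Lif-202 codes in capitals. The bases shown for Lif-201 also lie within Lif-202, so they do not set Lif-201 apart.
Lif-202: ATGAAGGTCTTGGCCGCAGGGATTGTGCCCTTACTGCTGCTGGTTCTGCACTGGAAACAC
Lif-201: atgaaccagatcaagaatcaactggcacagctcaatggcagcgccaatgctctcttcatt
Lif-202 took 0% of the coding Lif TPM in all 4 PDPN+ neratinib libraries and in 3 of 4 PDPN+ vehicle libraries, and 8.59% in vehicle library 3A. Library 3A was also the PDPN+ library with the most genes detected. In EpCAM+ neratinib libraries it took 23.5, 35.03, 49.0, 15.4 and 80.1%, and in EpCAM+ vehicle libraries 3.74% at the lowest, 53.7% at the median and 77.1% at the highest. EpCAM+ vehicle library 1B, with 3.74%, was the one that lay below the highest PDPN+ share. The EpCAM+ neratinib library with the most Lif had 10.1 TPM of Lif-202 and 2.50 TPM of Lif-201. In PDPN+ neratinib library 7A, 8.63 of the 10.6 TPM of Lif belonged to a noncoding transcript, Lif-203. These shares rest on Salmon's split of reads among transcripts, and read coverage along the gene was not tested.

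Osm (ENSMUSG00000058755), the oncostatin M gene, which in mice is known mainly from myeloid cells, was close to absent. It had 0 reads in all 4 PDPN+ neratinib libraries and in 3 of 4 PDPN+ vehicle libraries, and 34 reads in vehicle library 3A. Since 0 reads allow for up to 3, the level there could be as high as 0.110 CPM. EpCAM+ neratinib libraries had 3, 0, 31, 4 and 28 reads, and EpCAM+ vehicle libraries had 0 to 10 reads. Neither population stood clear of the other. Summed macrophage and monocyte markers (8 genes) were at 130 to 995 CPM in PDPN+ libraries and 233 to 512 CPM in EpCAM+ libraries. Summed neutrophil markers (6 genes) were at 0.378 to 45.0 CPM in PDPN+ libraries and 1.60 to 31.3 CPM in EpCAM+ libraries. In the PDPN+ library with 34 Osm reads they stood at 273 and 6.09 CPM, inside those ranges, and their part in the Osm reads was not tested.

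Among the receptors, Il11ra1 (ENSMUSG00000073889), the interleukin-11 receptor gene, had the highest level. It stood at 790, 464, 362 and 336 TPM in PDPN+ neratinib libraries and at 559, 317, 447 and 257 TPM in PDPN+ vehicle libraries. EpCAM+ neratinib libraries held 13.7, 23.0, 27.8, 23.1 and 21.5 TPM, and EpCAM+ vehicle libraries ran from 12.9 through a median of 18.2 to 24.1 TPM. The populations did not overlap, and the log2 difference was 4.65 (SE 0.20, adjusted p = 4.44e-12 by edgeR). Part of the PDPN+ level belonged to a short retained-intron transcript, Il11ra1-206, at 46.6 to 313 TPM in PDPN+ and 0 to 1.86 TPM in EpCAM+ libraries. Over protein-coding transcripts alone the level was 289 ± 73.7 TPM (SD, n = 8) in PDPN+ cells and 17.7 ± 4.38 TPM (SD, n = 11) in EpCAM+ cells. The near-identical genes Il11ra2 and Gm13305 took 0.0442 to 3.798% of the reads of the 3 genes together in PDPN+ libraries and 0 to 0.266% in EpCAM+ libraries. These shares are Salmon's own split between copies, so they cannot bound how many reads were misplaced. The call of Il11ra1 held with the reads of the 3 genes summed.

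Osmr (ENSMUSG00000022146), the oncostatin M receptor gene, was likewise higher in PDPN+ cells. It stood at 65.7, 89.1, 66.1 and 48.4 TPM in PDPN+ neratinib libraries and at 127, 152, 98.0 and 75.3 TPM in PDPN+ vehicle libraries. In the EpCAM+ neratinib group it stood at 1.97, 2.48, 12.9, 18.8 and 3.27 TPM, and EpCAM+ vehicle libraries ran from 1.51 through a median of 4.45 to 15.7 TPM. Every PDPN+ library lay above every EpCAM+ library, with a log2 difference of 4.19 (SE 0.51, adjusted p = 1.80e-06 by edgeR). Within EpCAM+ cells the level ran over more than a factor of 10, from 1.51 to 18.8 TPM.

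Il6st (ENSMUSG00000021756), which encodes gp130, was expressed in both populations and higher in PDPN+ cells. It stood at 26.4, 29.9, 26.4 and 92.9 TPM in PDPN+ neratinib libraries and at 48.8, 47.6, 58.8 and 14.9 TPM in PDPN+ vehicle libraries. EpCAM+ neratinib libraries held 8.87, 18.03, 25.4, 24.6 and 12.7 TPM, and EpCAM+ vehicle libraries ran from 5.59 through a median of 15.5 to 27.5 TPM. The populations overlapped in TPM but not in CPM, where the lowest PDPN+ library had 129 and the highest EpCAM+ library 102. The log2 difference was 1.74 (SE 0.26, adjusted p = 2.33e-05 by edgeR). In CPM, 4 of the 9 members tested (Il6, Il6st, Osmr and Il11ra1) lay above every EpCAM+ library in all PDPN+ libraries, against 7.52% of all genes. In TPM, 3 members (Il6, Osmr and Il11ra1) did so, against 5.55% of all genes.

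At the median, the level that these receptors kept in EpCAM+ cells was above that of fibroblast markers. EpCAM+ libraries held 1.26 to 14.0% (median 2.22%) of the PDPN+ mean of Osmr, 2.73 to 5.33% (median 4.25%) of that of Il11ra1 and 12.5 to 44.5% (median 34.2%) of that of Il6st. For the 6 fibroblast markers these medians did not exceed 0.223%, and the highest value of any of them in any EpCAM+ library was 1.29%, just over the lowest Osmr value.

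Il6ra (ENSMUSG00000027947), the interleukin-6 receptor gene, was low in all groups. It stood at 2.28, 0.05, 0.41 and 1.62 TPM in PDPN+ neratinib libraries and at 2.01, 1.09, 2.37 and 0.03 TPM in PDPN+ vehicle libraries. In the EpCAM+ neratinib group it stood at 0.55, 0.67, 0.50, 0.89 and 0.76 TPM, and EpCAM+ vehicle libraries ran from 0.57 through a median of 0.93 to 2.09 TPM. PDPN+ libraries spread over both ends, with 3 of 8 above and 2 of 8 below every EpCAM+ library in CPM. The log2 difference was 1.09 (SE 0.65, 95% interval -0.27 to 2.44, adjusted p = 0.175 by edgeR).

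Lifr (ENSMUSG00000054263), the LIF receptor gene, varied more between PDPN+ libraries than between populations. It stood at 0.07, 15.5, 0.17 and 5.12 TPM in PDPN+ neratinib libraries and at 0, 2.31, 4.13 and 3.24 TPM in PDPN+ vehicle libraries. EpCAM+ neratinib libraries held 2.13, 0.91, 3.85, 3.07 and 1.83 TPM, and EpCAM+ vehicle libraries ran from 1.57 through a median of 3.43 to 6.37 TPM. PDPN+ libraries thus held from 0 to 4934 reads, whereas every EpCAM+ library had at least 321. The log2 difference was 0.86 (SE 0.85, 95% interval -0.92 to 2.63, adjusted p = 0.426 by edgeR), and without PDPN+ neratinib library 7A it was -0.30. In library 7A, which had the highest Lifr, summed blood endothelial markers stood at 98.5 CPM, inside their PDPN+ range of 18.7 to 129 CPM (1.52 to 20.3 CPM in EpCAM+ libraries), and their part in the Lifr level was not tested.

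By mean TPM the receptors ran in the order Il11ra1, Osmr, Il6st, Lifr and Il6ra in PDPN+ cells (441 ± 170, 90.2 ± 34.6, 43.2 ± 24.8, 3.81 ± 5.09 and 1.23 ± 0.978; SD, n = 8). The same order held in EpCAM+ cells except that Il6st came before Osmr (Il11ra1 19.9 ± 4.71, Il6st 16.6 ± 7.38, Osmr 7.44 ± 6.59, Lifr 3.06 ± 1.61 and Il6ra 0.933 ± 0.526; SD, n = 11). The ranges of every pair of neighbours in these orders overlapped, except that all PDPN+ values of Il11ra1 lay above those of Osmr. Within EpCAM+ cells, libraries 1B, 2B and 7B had the 3 lowest TPM values of Lif, Clcf1, Il6st, Osmr and Il11ra1 among the 11 libraries, whereas 1B and 2B had the highest values of Il6ra. These are the EpCAM+ libraries that stood apart. Without them the log2 differences between populations were 0.43 for Lif, -1.61 for Clcf1, 1.51 for Il6st, 3.86 for Osmr and 4.53 for Il11ra1, and each kept its side of the threshold.

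Of the family members outside the 10, the receptor genes Cntfr and Il27ra, for CNTF and interleukin-27, were higher in PDPN+ cells (log2 differences 2.76 and 6.08, edgeR adjusted p = 0.0145 and 4.81e-04). Cntfr, whose product takes part in the response to CLCF1, was thus higher in the population in which Clcf1 was lower, though unevenly. It had 6, 489, 114 and 180 reads in PDPN+ neratinib libraries and 0, 17, 192 and 2 in PDPN+ vehicle libraries. EpCAM+ libraries had 3 to 66 reads, and in CPM 4 of 8 PDPN+ libraries lay above all of them and 1 below. Il27ra was uneven too, with 346, 10, 13 and 13 reads in PDPN+ neratinib libraries and 41, 9, 250 and 574 in PDPN+ vehicle libraries. EpCAM+ libraries had 0 to 12 reads of Il27ra, and in CPM 7 of 8 PDPN+ libraries lay above all of them. In library 1A its whole level of 3.24 TPM belonged to a retained-intron transcript. The cardiotrophin gene Ctf2 was higher as well (1.80), from no more than 43 reads in any library, and Ebi3, a subunit of interleukin-27, was lower (-4.55), with 0 reads in 7 of 8 PDPN+ libraries and 10 to 38 reads in EpCAM+ libraries. Ctf1, Cntf and Il27 did not pass, and Il31, Il31ra and Il11ra2 were not tested. Of the 4 other receptor genes listed, the 2 tested were thus higher. Over all genes, 24.3% were higher and 25% lower.

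Downstream of the receptors, 10 of 15 STAT3 target genes were higher in PDPN+ cells, 2 were lower and 3 did not pass, where 24.3% of all genes were higher and 25% lower. The median log2 difference of the list was 1.91, against -0.13 over all genes. The list was chosen with earlier results of these data known, so its counts and median are a description. The acute-phase gene Saa3 stood at 6500 ± 4969 CPM in PDPN+ cells and 3.61 ± 5.70 CPM in EpCAM+ cells (log2 difference 10.97), and the chemokine gene Ccl2 at 676 ± 264 and 1.16 ± 1.19 CPM (9.35; SD, n = 8 and 11). The lower genes were the AP-1 gene Junb (-1.36) and Myc (-0.57). Of 10 JAK-STAT transducer genes, 4 were higher, 1 was lower and 5 did not pass, so 5 of 10 were called, near the 49.3% of all genes, with Stat3 at 0.81 and the kinase gene Tyk2 at -2.29. Of 6 feedback inhibitor genes, Socs1 (2.76) was higher and 5 did not pass, among them Socs3, the main brake on gp130, at 0.45 (SE 0.40, adjusted p = 0.374 by edgeR). The protease genes that shed the interleukin-6 receptor split, with Adam10 lower (-0.81) and Adam17 not passing (0.15). These genes also respond to other pathways, and the part of the family's cytokines in their levels was not tested.

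**Figure D3:**
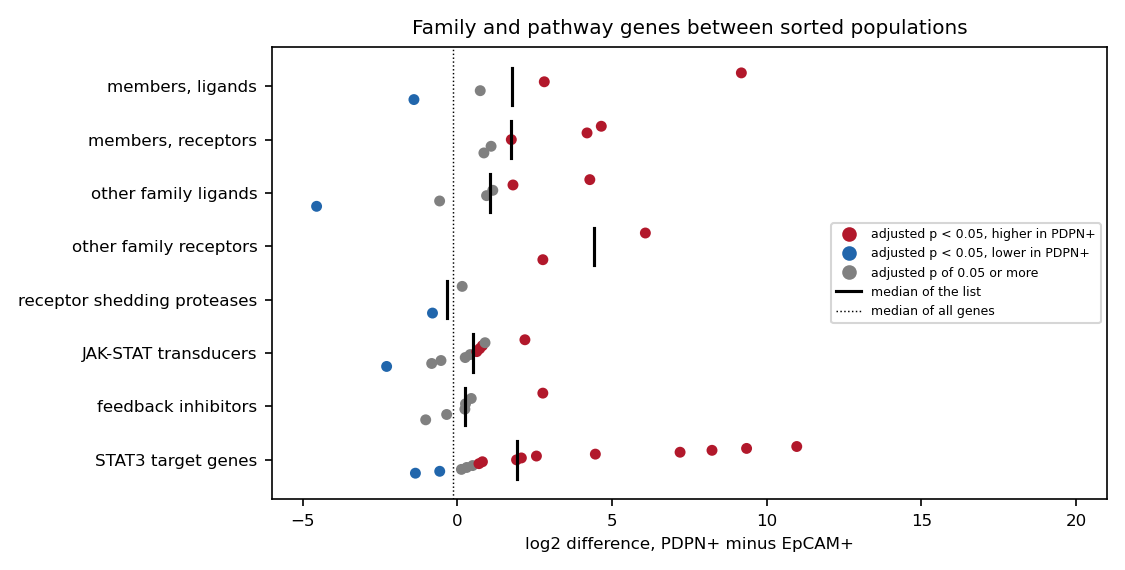
Log2 difference (PDPN+ minus EpCAM+) of each tested gene by list, with a bar at the list's median and a dotted line at the median of all genes, -0.13. The STAT3 target genes reach from -1.36 to 10.97, while the feedback inhibitors have a median of 0.25 with Socs1 at 2.76.

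To ask what neratinib did to these genes in each population, neratinib libraries were compared with vehicle libraries. No member passed in either population. For PDPN+ cells, 0 of 14437 genes (0%) had an adjusted p under 0.05 by edgeR, 331 (2.29%) had an unadjusted one under it, and DESeq2 called 76 of 17373 genes (0.437%). For EpCAM+ cells, the counts were 0 of 17200 genes (0%) by edgeR, 524 (3.05%) before adjustment, and 15 of 23131 genes (0.0648%) by DESeq2.

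In PDPN+ cells the members with an unadjusted p under 0.05 were Il6 and Osmr. Mean Il6 was 63.8 ± 23.9 TPM after neratinib and 128 ± 51.0 TPM after vehicle (SD, n = 4 each), a log2 difference of -1.01 (SE 0.41, 95% interval -1.92 to -0.10, unadjusted p = 0.0334, adjusted p = 1.00 by edgeR). In TPM all 4 neratinib libraries lay below all 4 vehicle libraries, with 83.3 next to 84.0 at the border, as 2% of genes did, and in CPM the groups overlapped. The vehicle libraries with the most Il6 were 4A and 1A, and without these libraries, which stood apart, the log2 difference was -0.28 (SE 0.38), and without 4A alone -0.61. Mean Osmr was 67.3 ± 16.7 TPM after neratinib and 113 ± 33.5 TPM after vehicle, with overlapping groups. Its log2 difference was -0.76 (SE 0.33, 95% interval -1.48 to -0.03, unadjusted p = 0.0422, adjusted p = 1.00 by edgeR), and -0.73 (SE 0.39) without the same libraries.

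The other members gave the following intervals in PDPN+ cells. The log2 difference between neratinib and vehicle was -1.15 (95% interval -2.95 to 0.65) for Lif, or -0.56 without vehicle library 4A, and 0.31 (-2.51 to 3.13) for Il11. It was -0.41 (-2.43 to 1.61) for Clcf1, 0.20 (-3.21 to 3.61) for Il6ra and 1.06 (-2.75 to 4.86) for Lifr. It was 0.33 (-0.38 to 1.05) for Il11ra1 and 0.13 (-0.65 to 0.91) for Il6st, so a change of Il6st by a factor of 2 in either direction lay outside its interval. For Il11ra1 it was 0.07 without neratinib library 6A and 0.62 without vehicle library 1A. For Il11, Clcf1, Il6ra and Lifr a change by a factor of 2 lay inside the interval in both directions, and was not detectable at this spread.

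In EpCAM+ cells the intervals were narrower for Clcf1, the main ligand gene there, with a log2 difference of -0.13 (95% interval -0.79 to 0.52), and for Il11ra1, at 0.20 (-0.22 to 0.63). Clcf1 averaged 41.1 ± 13.3 TPM after neratinib (SD, n = 5) and 42.9 ± 16.2 TPM after vehicle (SD, n = 6). Il6ra had the lowest unadjusted p of the members, with a mean of 0.673 ± 0.159 TPM after neratinib and 1.15 ± 0.640 TPM after vehicle and a log2 difference of -0.81 (SE 0.39, unadjusted p = 0.0628, adjusted p = 0.999 by edgeR). The vehicle libraries with the most Il6ra were 1B and 2B, at 1.79 and 2.09 TPM, and without 1B, 2B and 7B the log2 difference was -0.11 (SE 0.29). The remaining log2 differences were 0.13 for Lif, 0.10 for Il11, 0.18 for Il6st, -0.39 for Lifr and 0.22 for Osmr. Il6 and Osm were not tested there because of their low counts.

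**Figure D4:**
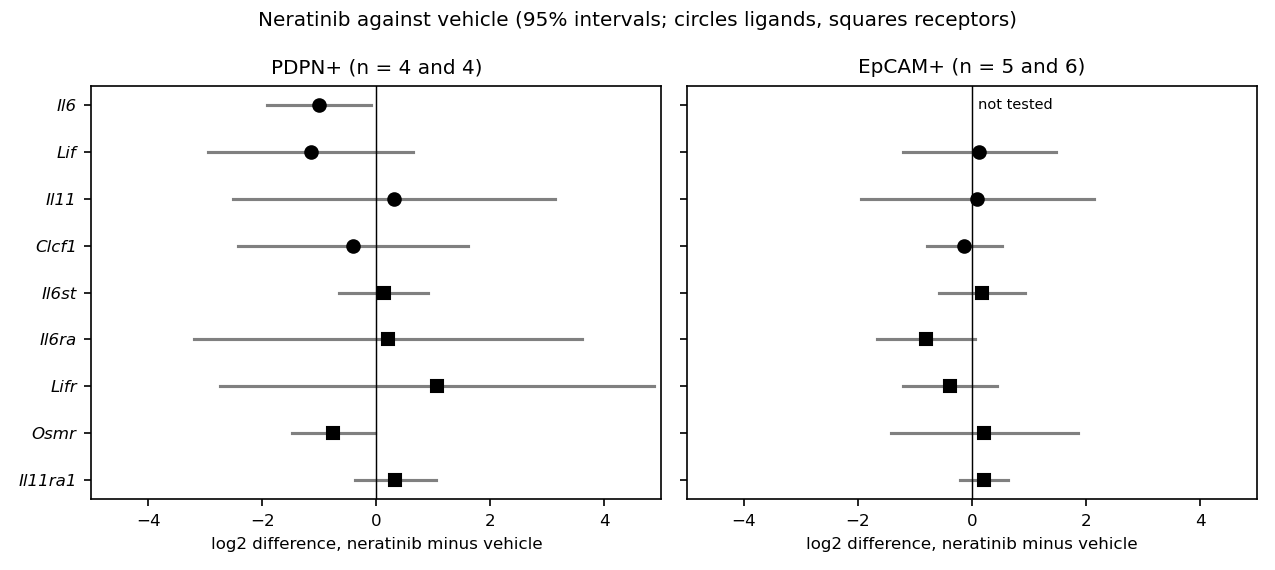
Log2 difference between neratinib and vehicle with its 95% interval in PDPN+ libraries (left) and EpCAM+ libraries (right). The intervals of Il6 (-1.92 to -0.10) and Osmr (-1.48 to -0.03) in PDPN+ cells lie below 0 before adjustment for multiple tests, and all others cross it.

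Whether the neratinib effect differed between the populations was tested as an interaction, with the EpCAM+ effect subtracted from the PDPN+ effect. It called 13 of 19626 genes (0.0662%), where 2191 (11.2%) had an unadjusted p under 0.05, and no member. With the mouse as a replicate block it called 0 genes (0%), and with DESeq2 691 (3.31%), again with no member. The interaction was -0.87 for Il6 (SE 0.66), -1.29 for Lif (SE 0.98) and -0.98 for Osmr (SE 0.94), and the smallest adjusted p of a member was 0.758 by edgeR. Single libraries moved these values: without PDPN+ vehicle library 4A the interaction was -0.43 for Il6 and -0.66 for Lif, without EpCAM+ neratinib library 13B it was -0.40 for either gene, and without EpCAM+ neratinib library 12B it was -0.34 for Osmr. No gene of the pathway lists passed in either neratinib comparison or in the interaction.

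Over the 8 PDPN+ libraries, the genes whose log2 CPM followed Il6 most closely among 11212 genes were Fads1 (Pearson r = 0.969, Spearman rho = 0.786), Frg1 (0.964 and 0.929) and Cct3 (0.959 and 0.952). Without libraries 4A and 1A, the farthest from the median, r was 0.798, 0.806 and 0.869. For Osmr they were Gm14636 (r = 0.915, rho = 0.690), Susd6 (0.913 and 0.952) and Gatad2b (0.912 and 0.810), and without libraries 9A and 1A r was 0.670, 0.710 and 0.617. These genes were picked as the highest of all and share libraries and depth, so the values are a description.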

How the data were processed

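RNA of 19 sorted libraries was measured. The submitters' processing notes name Salmon 1.9.0 and GRCm39. For each transcript, the authors deposited estimated counts from Salmon, which are not normalised, and TPM. No source used here gives the strand settings, so overlapping genes may share reads. Per the labels' protocols, a low-input kit was used with PCR cycles set by the RNA amount. Of 147828 transcripts, 137063 matched GENCODE M21 (GRCm38, used for names and transcript sequences) and were summed to 51707 genes and rounded. Unmatched transcripts held 4.07 to 8.96% of reads in PDPN+ and 1.77 to 2.26% in EpCAM+ libraries.

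Counts were tested with edgeR 4.0.16 (TMM, filterByExpr, robust quasi-likelihood, Benjamini-Hochberg) in R 4.3.3, with 4 group means for the populations and the interaction and each population alone for neratinib. Scripts were tested on simulated data. Alternatives used DESeq2 1.42.0, limma 3.58.1 on log2(TPM + 1) and log2(TPM + 0.1), no filter, subsets, and leaving out each library. Same-numbered libraries were taken as one mouse. The correlation of their deviations from group means was -0.165 to 0.0487 over 8 mice. CPM are scaled by TMM. Floors and intervals of counts cover counting error only.

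All members and other family genes are named, except that some genes the rule names are not reported here. Other lists name up to 2 called genes per direction by size with a mean of at least 1 CPM, and Socs3 and Adam17 were added after their values were seen. Members and lists were chosen with earlier results of these data known. Correlated genes had a mean of at least 4 CPM.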

Additional observations from a re-analysis of the deposited data

Results flagged for a closer look

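In 3 of 39 groups of 4 to 6 libraries tested, 1 library lay farther from the others than Dixon's 95% limit allows, and chance flags about 1 in 20 groups. Lif stood at 12.91 TPM in EpCAM+ neratinib library 13B, where the next highest library had 3.77 TPM. Osm stood at 0.396 TPM in PDPN+ vehicle library 3A, and the other 3 libraries were at 0, so any level in 3A would have been flagged. Il6st stood at 92.87 TPM in PDPN+ neratinib library 9A, from the same mouse number as 13B, with the next at 29.9 TPM.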

How the results depend on the processing

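The calls of Il6, Il6st, Osmr and Il11ra1 between the populations held under every alternative run, as did the side of the threshold of Il6ra and Lifr, and no neratinib or interaction value of a member passed under any. The 13 interaction calls moved most: DESeq2 gave 691, log2(TPM + 1) with limma 1, the replicate block 0, and leaving out 1 library 9 to 131, with 131 without PDPN+ vehicle library 4A and 127 without 1A. Population calls numbered 5422 in vehicle and 5830 in neratinib libraries alone, and 7252 with the replicate block. In fits with no block they numbered 11005 without PDPN+ libraries 1A and 4A, and 8657 without EpCAM+ libraries 1B, 2B and 7B. These 2 fits were added after seeing the data, and all 19 libraries gave 9671. Neratinib calls numbered 76 (DESeq2) and 111 (all 19 libraries in 1 fit) in PDPN+ and 15 (DESeq2) in EpCAM+ cells. The replicate block changed no other member's call than that of Il11.

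Directions turned round only for members that did not pass, and the cause was not tested. Between the populations, Lifr was -0.26 with log2(TPM + 1), -0.997 with log2(TPM + 0.1) and -0.66 with the replicate block, and Il6ra -0.14 with log2(TPM + 0.1). For neratinib in PDPN+ cells, Il6st was -0.019 with log2(TPM + 1), -0.0174 with log2(TPM + 0.1) and -0.18 without libraries 1A and 4A. Il6ra was -0.19 with log2(TPM + 1), -0.34 with log2(TPM + 0.1) and -0.0835 without those libraries, and Il11 -0.42 without them. In EpCAM+ cells, Lif was -0.0224 with log2(TPM + 1), -0.0154 with log2(TPM + 0.1) and -0.0891 without the 3 libraries that stood apart, and Il11 -0.026 with log2(TPM + 0.1) and -0.0446 without those 3. In the interaction, the replicate block gave 0.0698 for Il6st and -0.69 for Lifr.

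Leaving out each library in turn, the population values of Lif ran from 0.36 to 1.19 and of Lifr from -0.30 to 0.99. In PDPN+ cells the neratinib values ran from -0.36 to 0.86 for Il11, -0.75 to 0.13 for Clcf1, -0.25 to 0.27 for Il6st, -0.48 to 0.60 for Il6ra and -1.20 to 1.47 for Lifr. In EpCAM+ cells they ran from -0.73 to 0.33 for Lif, -1.07 to 0.40 for Il11, -0.30 to 0.0344 for Clcf1 and -0.40 to 0.60 for Osmr. The interaction ran from -0.45 to 1.36 for Il11, -0.59 to 0.23 for Clcf1, -0.44 to 0.12 for Il6st, -0.78 to 1.84 for Lifr and -0.13 to 0.40 for Il11ra1.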
